A study of Mus musculus with 6 samples.

Results

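Mitochondrial ribosomal proteins are the protein parts of the ribosome inside mitochondria. Their genes were taken as all rows of the deposited table whose mouse symbol begins with Mrpl (large subunit) or Mrps (small subunit) followed by a digit, with pseudogenes left out. The rule found 78 genes among 19323, of which 49 were Mrpl and 29 were Mrps genes. None was at 0 in any library, and all 78 had a mean of at least 10 normalized counts and entered the test. The rule rests on names alone and on no measured value, but the members were chosen with earlier results of these data known.

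RNA was sequenced from primary CD8+ T cells of the spleens of wild-type C57BL/6 mice, which were 6 weeks old when the diets began. One group received MCDHFD for 7 weeks and the other ND for 7 weeks. The labels do not spell out these diet names, and they speak of the animals of both diets as MASH models (metabolic fatty liver with inflammation). Each diet had 3 libraries, and whether a library stands for 1 animal, several or a part of one is not stated. P-values therefore speak of the spread among these libraries, which may be technical.

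Mitochondria carry their own small genome, which encodes a handful of respiratory chain and ATP synthase subunits, and the mitochondrial ribosome is the machine that makes them. Its RNA comes from that genome, while every protein of it is encoded in the nucleus, made in the cytosol and imported. A part of these proteins has bacterial counterparts and the rest were added in the evolution of mitochondria. In CD8+ T cells mitochondrial translation is known for its part in the metabolic change on activation and in sustained cytotoxicity.

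The deposited totals were 14119816 to 14752121 normalized counts per library, and log2 values of libraries of the same diet correlated at 0.985 to 0.988. Markers of several cell types differed between the diets. The 20 CD8 T cell identity genes were all detected in both diets and all lower in MCDHFD, with a summed share of 0.486 to 0.557% of all normalized counts in MCDHFD against 0.976 to 0.990% in ND. Cd8a averaged 5264 ± 458 normalized counts in MCDHFD and 13784 ± 350.4 in ND. Of 25 monocyte and macrophage genes 23 were higher and 1 lower (2.50 to 3.03% in MCDHFD against 0.510 to 0.612% in ND), and of 19 erythroid genes 19 were higher (0.130 to 0.204% against 0.0300 to 0.0320%). Of 15 tested neutrophil genes 13 were higher (0.0777 to 0.131% against 0.0129 to 0.0184%). Of 10 tested plasma cell genes 6 were higher and 1 lower (0.0872 to 0.125% against 0.0396 to 0.0416%). Of 15 B cell genes 2 were higher and 13 lower (0.188 to 0.225% against 0.182 to 0.201%), and of 16 dendritic cell genes 2 were higher and 13 lower (0.219 to 0.227% against 0.477 to 0.520%). No marker was at 0 in all libraries. The part of these markers in the values below was not tested, and in such bulk samples fewer cells of a type and less RNA per cell cannot be told apart.

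Mitochondrial ribosomal protein genes changed little, and in both directions. Of the 78 genes 10 rose and 16 fell in MCDHFD, and 52 did not pass, where a call is an adjusted p under 0.05 in limma over all 13430 tested genes. These 26 genes are 33.3% of the members, while 58.4% of all tested genes were called, 30.3% as higher and 28.1% as lower. The background is 60.8% when only genes averaging 50 or more are counted, as all members but Mrps36 did. The 3 libraries of one diet lay entirely above or below those of the other in 33 members (42.3%), 14 higher and 19 lower, against 65.4% of all tested genes. These directions hold for the deposited scaling. With the CD8 T cell identity genes held equal in all libraries, the median of all tested genes moved to 1.02 on the log2 scale, and limma then called 75 members higher and 0 lower, with 0 lower at an unadjusted p under 0.05 too. That scaling was not combined with edgeR or DESeq2, which called 16 and 15 members lower without it on 5 libraries, and 17 and 16 on 6. Under quantile scaling the split was 9 higher and 23 lower. Rose and fell are therefore used below relative to the other genes of the table. Under equal CD8 identity each mitochondrial or ribosomal list described below had 0 lower calls in limma, also at an unadjusted p under 0.05, except assembly with 1.

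The changes were also small. The median size of the log2 fold change was 0.18 among the members and 0.40 among all tested genes, and the median signed value was -0.06 among the members and 0.00 among all. Within 0.5 of 0 on the log2 scale lay 70 of 78 members (89.7%) and 58.0% of all tested genes. So did 97.6% of 84 cytosolic ribosomal protein genes and 93.7% of 79 nuclear respiratory chain and ATP synthase genes. Their median sizes were 0.12 and 0.16, so changes this small were not particular to the members. The standard errors were alike, with a median of 0.10 in the members and 0.11 in all genes. Only 3 members, Mrps25, Mrps15 and Mrpl14, were called and changed by at least 1.5-fold, all lower in MCDHFD, against 33.8% of all tested genes in either direction. No test of the difference between the members and the table was made.

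**Figure D1:**
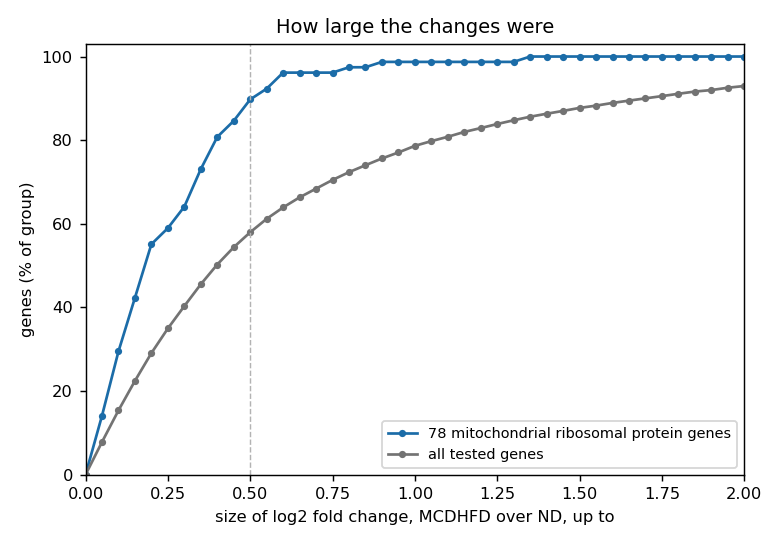
Share of genes (y axis, percent of the group) whose log2 fold change, MCDHFD over ND, was no larger in size than the value on the x axis, for the 78 mitochondrial ribosomal protein genes and for all 13430 tested genes. At the dashed line, 0.5 on the log2 scale, the members stand at 89.7% and all genes at 58.0%.

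**Figure D2:**
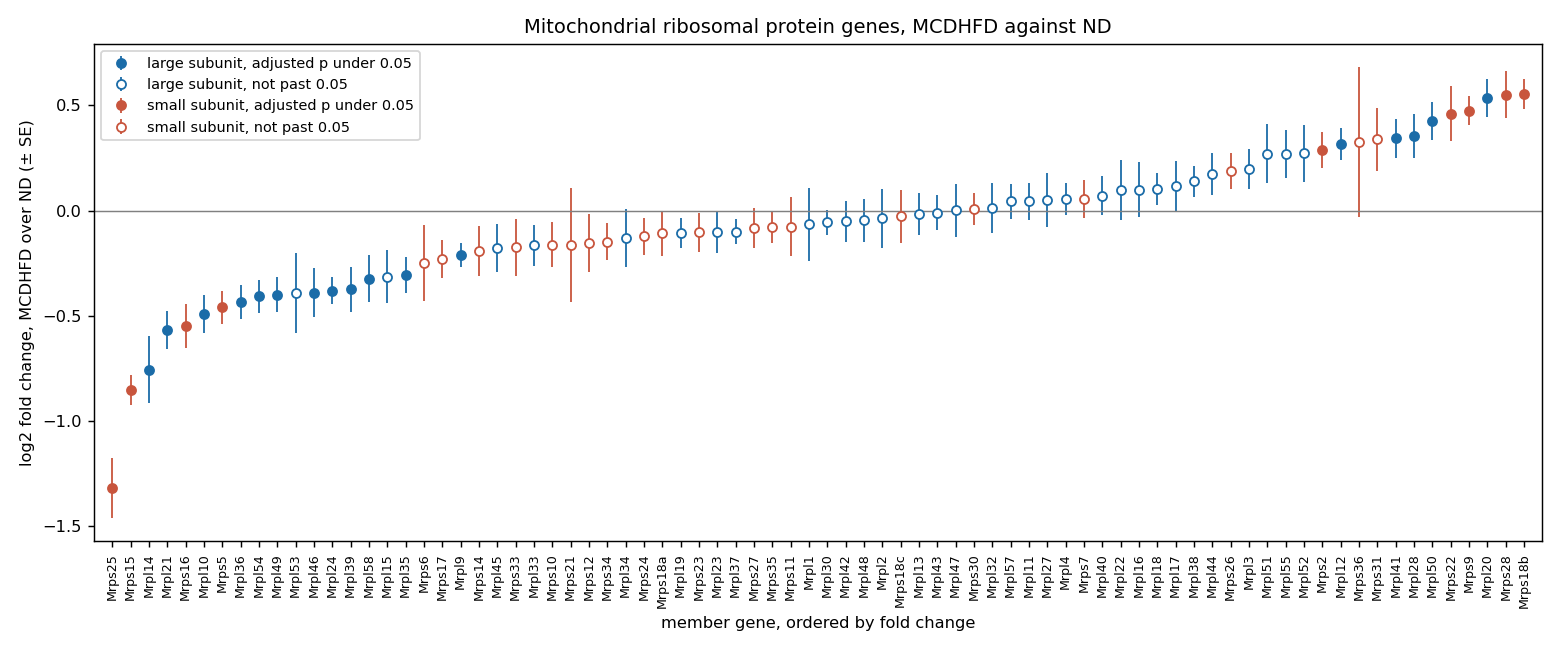
Log2 fold change of each of the 78 genes, MCDHFD over ND on the deposited scaling (y axis), with its standard error from limma (bars), in rising order; colour gives the subunit by symbol, and filled points passed an adjusted p of 0.05. Most points lie within 0.5 of 0, with Mrps25, Mrps15 and Mrpl14 lowest; with the CD8 identity genes held equal, 75 genes were higher.

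The DNA before the starts of these genes was searched for letters of factors known for genes of mitochondrial function. RefSeq (GRCm38.p6, the same coordinates as mm10) gave a start for 69 of the 78 genes, 1 per gene, and the 250 bases before it were searched on both strands. GCATGCGC, the core of the site of NRF1, a factor known for activating nuclear genes of mitochondria, was in 8 of 69 windows (11.6%), against 2.9% of protein-coding promoters and 2.3% of all promoters in the table. CCGGAAG, the core of ETS factors such as GABP, was in 17 (24.6%), against 9.0% of protein-coding and 6.9% of all promoters. AAGATGGC, the core of YY1, was in 4 (5.8%), against 1.5% and 1.6%. In total, 26 of the 69 windows (37.7%) held at least 1 of these and 43 held none, and no enrichment was tested. TATAAA was in 5.8% of members and 11.6% of protein-coding promoters, and CCAAT in 36.2% and 35.4%. The median GC content was 58.4% in the members and 55.6% in protein-coding promoters. NRF1, ETS and YY1 letters did not overlap one another in any of these windows, and matches are a description, not bound sites.

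The 6 windows printed next are examples picked after their values were seen. They are those of the 2 lowest and the highest fold changes, of 2 more of the 4 called members with NRF1 letters and of 1 of the 3 called members with ETS letters. Written 5′ to 3′ on the strand of the gene, with NRF1, ETS or YY1 letters in capitals, they end at the base before the RefSeq start. Mrps25 at chr6:92184024-92184273 (minus strand) and Mrps15 at chr4:126046678-126046927 (plus strand), the lowest fold changes, hold none of these letters. Mrpl10 at chr11:97041332-97041581 (plus strand) and Mrpl39 at chr16:84735245-84735494 (minus strand), both lower in MCDHFD, hold NRF1 letters, and in Mrpl39 a match on each strand overlaps into a 10-base run. Mrps18b at chr17:35916441-35916690 (minus strand), the highest fold change, also holds NRF1 letters, and Mrps22 at chr9:98601680-98601929 (minus strand), higher as well, holds ETS letters.
Mrps25: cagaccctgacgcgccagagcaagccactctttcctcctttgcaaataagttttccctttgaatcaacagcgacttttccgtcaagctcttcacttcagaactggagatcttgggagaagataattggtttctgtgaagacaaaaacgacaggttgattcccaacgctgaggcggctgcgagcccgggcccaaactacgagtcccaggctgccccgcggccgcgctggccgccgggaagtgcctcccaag
Mrps15: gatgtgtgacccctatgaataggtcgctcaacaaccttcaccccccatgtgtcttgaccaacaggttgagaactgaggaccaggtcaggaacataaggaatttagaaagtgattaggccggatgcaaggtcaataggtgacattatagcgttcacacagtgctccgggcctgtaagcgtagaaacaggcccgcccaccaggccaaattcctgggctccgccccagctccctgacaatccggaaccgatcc
Mrpl10: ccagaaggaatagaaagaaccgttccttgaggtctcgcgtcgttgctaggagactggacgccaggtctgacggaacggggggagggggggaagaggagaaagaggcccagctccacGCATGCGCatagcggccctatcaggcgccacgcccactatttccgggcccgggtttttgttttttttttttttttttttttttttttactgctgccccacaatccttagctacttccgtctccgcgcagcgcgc
Mrpl39: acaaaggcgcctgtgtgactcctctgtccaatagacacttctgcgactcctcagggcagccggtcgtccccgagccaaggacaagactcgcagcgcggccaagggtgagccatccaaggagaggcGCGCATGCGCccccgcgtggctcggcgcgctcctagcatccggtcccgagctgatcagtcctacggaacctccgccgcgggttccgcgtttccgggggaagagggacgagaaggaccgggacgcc
Mrps18b: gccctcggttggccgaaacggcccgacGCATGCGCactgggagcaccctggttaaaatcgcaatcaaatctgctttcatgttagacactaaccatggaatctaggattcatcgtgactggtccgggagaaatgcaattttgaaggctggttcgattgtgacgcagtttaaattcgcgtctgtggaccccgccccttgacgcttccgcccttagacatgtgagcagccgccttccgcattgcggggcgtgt
Mrps22: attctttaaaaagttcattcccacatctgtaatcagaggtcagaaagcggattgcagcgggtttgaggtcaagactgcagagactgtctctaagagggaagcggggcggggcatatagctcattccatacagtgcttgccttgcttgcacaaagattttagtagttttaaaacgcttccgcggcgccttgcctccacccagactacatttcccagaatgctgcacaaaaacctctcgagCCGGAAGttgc

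The letters did not go with one direction. Of the 8 genes with NRF1 letters, Mrpl10, Mrpl39 and Mrpl9 fell, Mrps18b rose and 4 did not pass. Of the 17 with ETS letters, Mrpl58 and Mrps16 fell, Mrps22 rose and 14 did not pass, while 21 of the 52 genes without them were called. The called share was 17.6% with ETS letters and 40.4% without them. For NRF1 letters it went the other way, with 50% called among genes with them and 32.8% among the 61 without. The share was 58.4% among all tested genes, and no difference by letters was tested. Many members also have a second gene that starts nearby on the other strand. A protein-coding neighbour on the opposite strand started within 1000 bases of 33 of the 78 (42.3%), against 2384 of 21951 protein-coding genes (10.9%). Mrpl46 and Mrps11 are each other's neighbour, 412 bases apart.

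Of the 30 members with a tested neighbour, both genes were called in 6, and they moved the same way in 4. Among the 33 members with a neighbour 36.4% were called, against 58.4% of all tested genes. No share over other neighbouring genes was taken, and whether neighbours moved together was not tested. Mrpl54 and Apba3, whose starts lie 26 bases apart, fell together (log2 fold changes -0.41 and -0.38), as did Mrpl21 and Ighmbp2 (-0.57 and -0.39) and Mrps5 and Zfp661 (-0.46 and -0.96), and Mrpl41 rose with Pnpla7 (0.34 and 0.48). Exons of Mrpl21 and Ighmbp2 overlap over 117 bases on opposite strands, so with the strand setting unknown their reads may be shared. Mrps18b rose while Ppp1r10, 45 bases away, fell (0.55 and -0.35), and Mrpl50 rose while Zfp189, 83 bases away, fell (0.43 and -0.74).

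The RNA of the large subunit joins amino acids, and its tunnel guides the new chain to the inner membrane. Of 49 Mrpl genes 5 rose, 12 fell and 32 did not pass (34.7% called, against 58.4% of all tested genes). With the CD8 identity genes held equal, 48 were higher and 0 lower. On the deposited scaling the median log2 fold change of the Mrpl genes was -0.04. Mrpl14 (uL14m, a protein at the face that meets the small subunit, ENSMUSG00000023939, chr17:45686322-45698495, plus strand) had 58.4, 61.9 and 74.9 normalized counts in the MCDHFD libraries, against 111, 100.2 and 119.8 in the ND libraries. All MCDHFD libraries were below all ND libraries (log2 fold change -0.76, SE 0.16, limma adjusted p = 0.00331). Of the exon bases of Mrpl14, 11.2% overlap Tmem63b on the opposite strand. Mrpl21 (bL21m, a protein bound to the large ribosomal RNA, ENSMUSG00000024829, chr19:3282901-3292837, plus strand) had 218, 220.2 and 242 normalized counts in the MCDHFD libraries, against 333, 326 and 350.4 in the ND libraries. Again the groups did not overlap (log2 fold change -0.57, SE 0.09, limma adjusted p = 0.000596). A processed pseudogene of 97.0% identity over 594 bases exists for Mrpl21, and how the counter treated reads that fit both is unknown here.

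The stalk, which recruits the translation factors to the large subunit, held members that moved in opposite directions. Mrpl10 (uL10m, the base on which the stalk dimers sit, ENSMUSG00000001445, chr11:97041560-97049213, plus strand) had 372, 432 and 453 normalized counts in the MCDHFD libraries, against 592, 602 and 568 in the ND libraries. The groups were apart, with MCDHFD replicate 1 lowest (log2 fold change -0.49, SE 0.09, limma adjusted p = 0.00133). Mrpl12 (bL12m, the mobile stalk protein, also reported to bind the mitochondrial RNA polymerase) had 586, 660.5 and 591 normalized counts in the MCDHFD libraries, against 510.0, 474 and 488 in the ND libraries. Here each MCDHFD library was above each ND library (log2 fold change 0.32, SE 0.08, limma adjusted p = 0.00608). Mrpl54 (mL54), a mitochondria-specific protein at the stalk, had 298, 289.9 and 312 normalized counts in the MCDHFD libraries, against 399, 382 and 414 in the ND libraries, so it was lower in each MCDHFD library (log2 fold change -0.41, SE 0.08, limma adjusted p = 0.00211). Of the other stalk genes, Mrpl11 did not pass (log2 fold change 0.04), nor did Mrpl53 (-0.39, limma adjusted p = 0.108), although its libraries did not overlap. Of the exon bases of Mrpl53, 88.0% lie in another gene model, so reads of the pair cannot be told apart.

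At the exit of the tunnel 2 of 9 genes fell and none rose, in limma, edgeR and DESeq2 alike, and 0 rose at an unadjusted p under 0.05. In limma that is 22.2% called, against 58.4% of all tested genes, 28.1% as lower, and 5 of the 9 fold changes were positive. Mrpl24 (uL24m, next to the exit), the member with the highest mean count, had 1156, 1211 and 1245 normalized counts in the MCDHFD libraries, against 1520.3, 1682 and 1504 in the ND libraries. The lowest ND library stood well above the highest MCDHFD library (log2 fold change -0.38, SE 0.06, limma adjusted p = 0.000869). Of its exon bases, 26.3% overlap Rrnad1 on the opposite strand, a gene of a mean of 505.9 normalized counts. Mrpl39 (mL39) averaged 280.2 ± 10.7 normalized counts in MCDHFD and 365 ± 46.3 in ND (log2 fold change -0.37, SE 0.11, limma adjusted p = 0.0156). Its call ended without ND replicate 1 (log2 fold change -0.34, limma adjusted p = 0.0538) or ND replicate 2 (-0.31, 0.0635). Mrpl45, the protein that ties the ribosome to the inner membrane, did not pass (log2 fold change -0.18), nor did Mrpl44 (0.17).

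In the central protuberance 2 of 9 genes fell and none rose in limma, with 1 higher at an unadjusted p under 0.05, and edgeR and DESeq2 each called 0 higher, with 1 lower on 5 libraries and 2 on 6. The limma share was 22.2%, against 58.4% of all tested genes, 28.1% as lower. Around the peptidyl transferase centre none of 4 was called by limma, edgeR or DESeq2, nor passed an unadjusted p of 0.05. Mrpl46 (mL46) averaged 223 ± 22.6 normalized counts in MCDHFD and 292 ± 29.1 in ND (log2 fold change -0.39, SE 0.12, limma adjusted p = 0.0185), a call that ended without MCDHFD replicate 2 (-0.31, 0.0616), ND replicate 1 (-0.37, 0.0546) or ND replicate 2 (-0.33, 0.0718). Mrpl58 (mL62), a peptidyl-tRNA hydrolase that frees chains from stalled ribosomes, averaged 266 ± 33.0 normalized counts in MCDHFD and 332 ± 20.8 in ND (log2 fold change -0.32, SE 0.11, limma adjusted p = 0.0314). Its call ended without MCDHFD replicate 1 (limma adjusted p = 0.0795), MCDHFD replicate 3 (0.103), ND replicate 2 (0.0980) or ND replicate 3 (0.0874), and in edgeR (0.0822) and DESeq2 (0.129) on 5 libraries, but not in either tool on 6. The peptidyl transferase genes Mrpl2, Mrpl3, Mrpl4 and Mrpl16 had log2 fold changes of -0.04, 0.20, 0.05 and 0.10.

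Other Mrpl genes that fell were Mrpl36 (bL36m), Mrpl49 (mL49), Mrpl35 (bL35m) and Mrpl9 (bL9m, at the base of the stalk through which spent tRNA leaves). Mrpl49 was the tightest member among the MCDHFD libraries, with 245, 245 and 246 normalized counts in the MCDHFD libraries, against 306, 337 and 329 in the ND libraries. The diets were apart (log2 fold change -0.40, SE 0.08, limma adjusted p = 0.00329). Mrpl36 had a log2 fold change of -0.44, Mrpl35 of -0.31 and Mrpl9 of -0.21. The Mrpl35 call ended in DESeq2 (adjusted p = 0.0636 on 5 libraries and 0.0508 on 6), and that of Mrpl9 without ND replicate 2 (limma adjusted p = 0.0550).

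Those that rose, beside Mrpl12, were Mrpl20 (bL20m, in bacteria a protein needed to begin assembly of the large subunit), Mrpl50 (mL50), Mrpl28 (bL28m) and Mrpl41 (mL41). Mrpl20 (ENSMUSG00000029066, chr4:155802878-155809975, plus strand) had 376, 412 and 369 normalized counts in the MCDHFD libraries, against 282, 268 and 248 in the ND libraries. Every MCDHFD library was above every ND library (log2 fold change 0.53, SE 0.09, limma adjusted p = 0.000918). Mrpl50 averaged 348 ± 18.8 normalized counts in MCDHFD and 259 ± 14.0 in ND (log2 fold change 0.43, SE 0.09, limma adjusted p = 0.00314). Mrpl41 averaged 299 ± 17.6 normalized counts in MCDHFD and 235 ± 11.5 in ND (log2 fold change 0.34), and a processed pseudogene is 97.8% identical to it over 372 bases. Mrpl28 averaged 339.7 ± 29.4 normalized counts in MCDHFD and 265 ± 21.3 in ND (log2 fold change 0.35, SE 0.10, limma adjusted p = 0.0161), a call that ended without MCDHFD replicate 2 (adjusted p = 0.0566), MCDHFD replicate 3 (0.0545) or ND replicate 1 (0.0540).

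**Figure D3:**
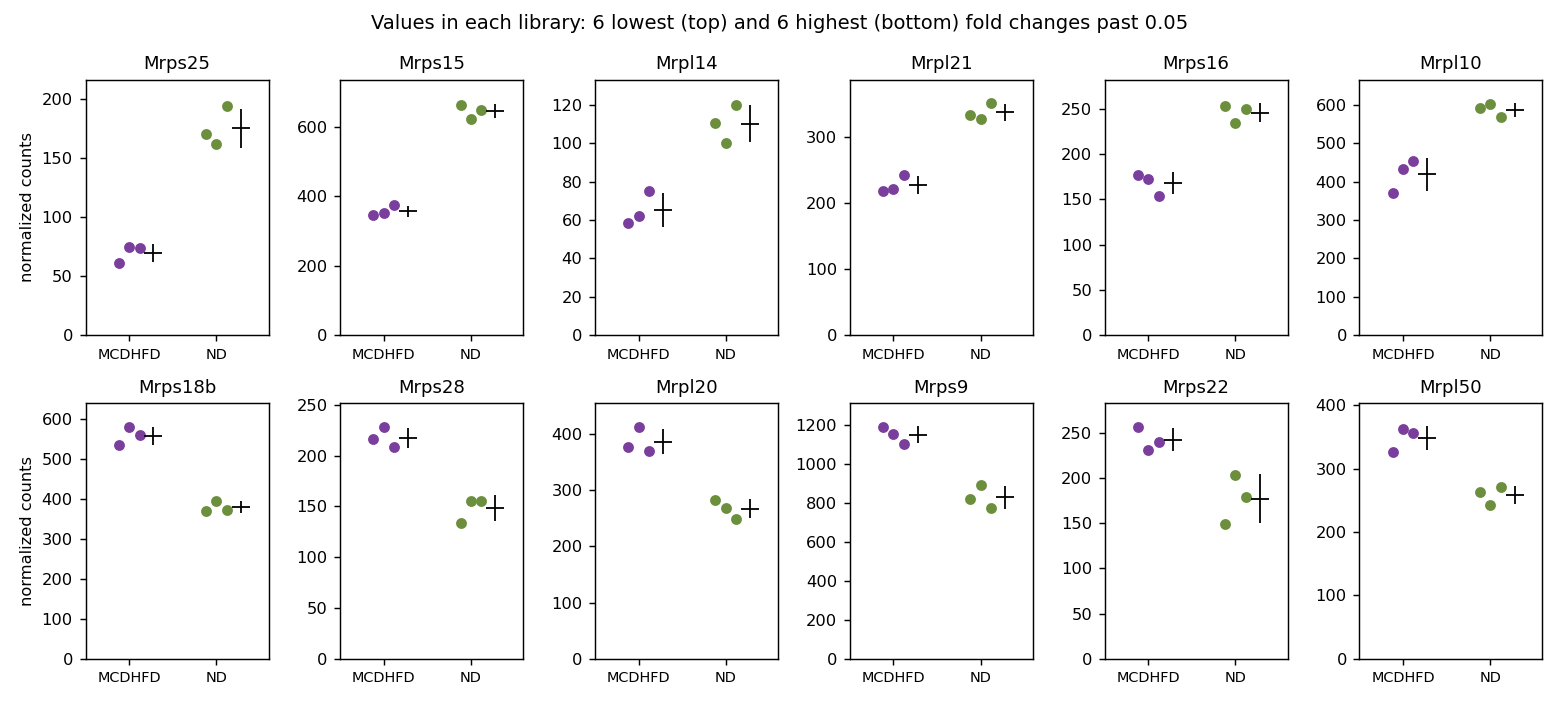
Normalized counts (y axes, from 0) in each MCDHFD library and each ND library for the 6 lowest (top row) and 6 highest (bottom row) fold changes among called members, with the mean and SD of each diet beside the points. The panels were picked by these same values. In each panel the 3 MCDHFD libraries lie entirely on one side of the 3 ND libraries, on the deposited scaling, as in 65.4% of all tested genes.

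The small subunit binds the messenger RNA and reads its codons. Of 29 Mrps genes 5 rose, 4 fell and 20 did not pass (31.0% called, against 58.4% of all tested genes). With the CD8 identity genes held equal, 27 were higher and 0 lower. On the deposited scaling the median log2 fold change of the Mrps genes was -0.10. Mrps25 (mS25, a mitochondria-specific protein, ENSMUSG00000014551, chr6:92169525-92184033, minus strand) had the largest change of all members, with 61.2, 74.7 and 73.8 normalized counts in the MCDHFD libraries, against 170.3, 162 and 194 in the ND libraries. The MCDHFD libraries all lay below the ND libraries (log2 fold change -1.32, SE 0.14, limma adjusted p = 6.6e-05). With the CD8 identity genes held equal it was still the lowest member but was not called (log2 fold change -0.30, adjusted p = 0.132). Of its exon bases, 69.8% overlap Nr2c2 on the opposite strand, a gene of a mean of 2820 normalized counts, and without the strand setting their reads cannot be told apart. A processed pseudogene of 98.0% identity over 2070 bases exists as well.

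Mrps15 (uS15m, in bacteria a protein that binds the small ribosomal RNA early in assembly, ENSMUSG00000028861, chr4:126046925-126055532, plus strand) had 345, 351 and 375 normalized counts in the MCDHFD libraries, against 663, 623 and 648 in the ND libraries. No exon base of it overlaps another gene, and the diets were far apart relative to the spread within each (log2 fold change -0.85, SE 0.07, limma adjusted p = 1.4e-05). Mrps16 (bS16m, ENSMUSG00000049960, chr14:20389304-20393634, minus strand) had 177, 173 and 154 normalized counts in the MCDHFD libraries, against 254, 234 and 250.4 in the ND libraries, without overlap of the diets (log2 fold change -0.55, SE 0.10, limma adjusted p = 0.00169). Mrps5 (uS5m, beside the channel where messenger RNA enters) had 532, 527 and 509 normalized counts in the MCDHFD libraries, against 722, 656 and 785 in the ND libraries. It was lower in each MCDHFD library (log2 fold change -0.46, SE 0.08, limma adjusted p = 0.00106). It was the 1 gene called among 7 at the decoding centre and messenger RNA path (14.3%, against 58.4% of all tested genes). The others of those 7, Mrps7, Mrps11, Mrps12, Mrps18c, Mrps21 and Mrps24, had log2 fold changes of 0.05, -0.08, -0.15, -0.03, -0.16 and -0.12. Processed pseudogenes exist for Mrps5 (98.4% identity over 1019 bases) and Mrps16 (96.3% over 402 bases).

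On the other side, Mrps18b (mS40, ENSMUSG00000024436, chr17:35910379-35916389, minus strand) had 536, 581 and 559 normalized counts in the MCDHFD libraries, against 371, 396 and 373 in the ND libraries. All MCDHFD libraries were above the ND libraries (log2 fold change 0.55, SE 0.07, limma adjusted p = 0.000206). It is 1 of 3 relatives of the bacterial protein S18, and the other two did not pass: Mrps18a had a log2 fold change of -0.11 (limma adjusted p = 0.415) and Mrps18c of -0.03 (0.865). An antisense gene with a mean of 8.27 normalized counts overlaps 30.5% of the exon bases of Mrps18b, and a processed pseudogene is 99.8% identical to it over 417 bases.

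Mrps28 (bS1m, ENSMUSG00000040269, chr3:8802146-8923918, minus strand) had 216, 228 and 208 normalized counts in the MCDHFD libraries, against 134, 156 and 155 in the ND libraries, higher in each MCDHFD library (log2 fold change 0.55, SE 0.11, limma adjusted p = 0.00249). Mrps9 (uS9m, ENSMUSG00000060679, chr1:42851233-42905683, plus strand), which in bacteria reaches towards the tRNA in the peptidyl site, had 1187, 1153 and 1102 normalized counts in the MCDHFD libraries, against 820.4, 889 and 770.0 in the ND libraries. The diets did not overlap there either (log2 fold change 0.47, SE 0.07, limma adjusted p = 0.000411). Mrps22 (mS22) is a mitochondria-specific protein whose mutation in people impairs the small subunit. It averaged 242 ± 12.7 normalized counts in MCDHFD and 177 ± 27.3 in ND (log2 fold change 0.46, SE 0.13, limma adjusted p = 0.0143). Mrps2 (uS2m) averaged 404 ± 24.8 normalized counts in MCDHFD and 330.2 ± 18.7 in ND (log2 fold change 0.29, SE 0.09, limma adjusted p = 0.0181), a call that ended under quantile scaling (log2 fold change 0.21, adjusted p = 0.0651) and without MCDHFD replicate 2 (0.24, 0.0647) or ND replicate 2 (0.24, 0.0691).

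Structures place some Mrps proteins apart from their symbols. Mrps30 (mL65) and Mrps18a (mL66) sit in the large subunit, and Mrps36 is now known as a part of the oxoglutarate dehydrogenase complex. Mrps30 had 688, 665 and 738 normalized counts in the MCDHFD libraries, against 642, 721 and 721 in the ND libraries, and the diets overlapped (log2 fold change 0.01, SE 0.08, limma adjusted p = 0.95). Mrps36 had the lowest mean, with 16.9, 30.5 and 35.8 normalized counts in the MCDHFD libraries, against 14.7, 27.2 and 22.8 in the ND libraries. Its spread was as wide as the difference (log2 fold change 0.33, SE 0.36, limma adjusted p = 0.459). Several pseudogenes of over 95% identity exist. With proteins assigned by structure, 17 of 51 large subunit genes and 9 of 26 small subunit genes were called, with medians of -0.04 and -0.11. These are 33.3% and 34.6%, against 58.4% of all tested genes.

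Both subunits held a slightly smaller share of each library's total in MCDHFD, where the deposited totals were higher. Summed over the Mrpl genes, the share of all normalized counts was 0.119% ± 0.00299 in MCDHFD and 0.130% ± 0.00325 in ND (SD, n = 3 each). Summed over the Mrps genes it was 0.0654% ± 0.00111 in MCDHFD and 0.0687% ± 0.00154 in ND. Not divided by the totals, the Mrps sums were 9473, 9727 and 9516 in MCDHFD against 9580, 9856 and 9803 in ND, and the diets overlapped. The undivided Mrpl sums were 16938, 17826 and 17718 in MCDHFD against 18200.5, 18823 and 18091 in ND, without overlap. All 78 genes together held 0.181, 0.189 and 0.185% in the MCDHFD libraries against 0.194, 0.203 and 0.198% in the ND libraries, so each MCDHFD library was below each ND library. The Mrpl sum over the Mrps sum was 1.79, 1.83 and 1.86 in MCDHFD against 1.90, 1.91 and 1.85 in ND, and the diets overlapped. The difference of the mean ratios was -0.06, with SDs of 0.04 in MCDHFD and 0.03 in ND. With values per kb it was -0.06 too, but the ratios of 2.12, 2.14 and 2.15 in MCDHFD then lay below the 2.18, 2.22 and 2.19 in ND without overlap.

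**Figure D4:**
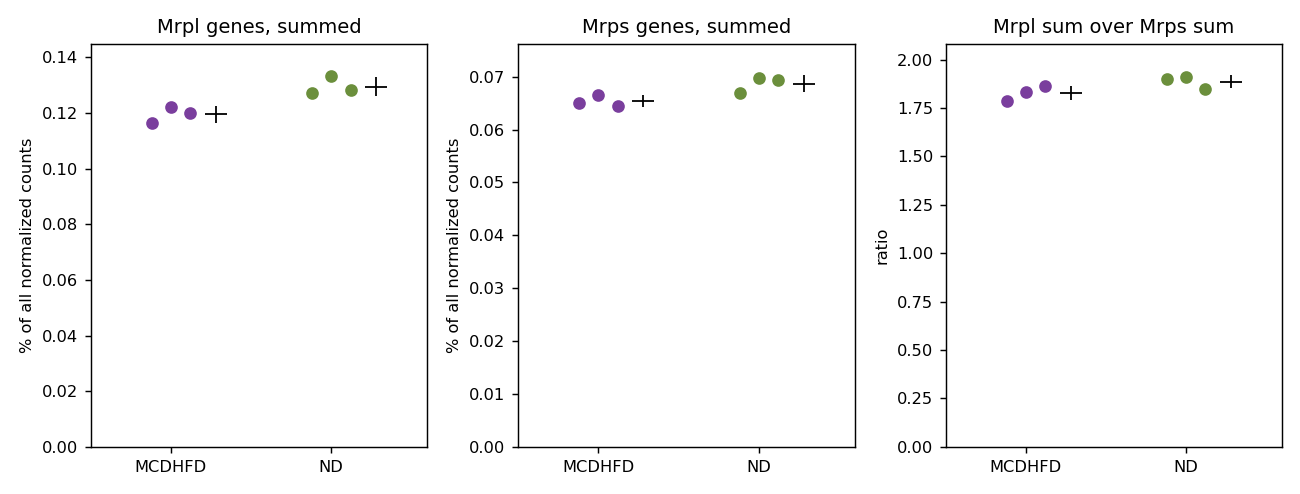
Summed Mrpl and Mrps values as a percent of all normalized counts (left and middle) and their ratio (right), each axis from 0, in the MCDHFD and ND libraries, with the mean and SD of each diet beside the points. Both shares were slightly lower in MCDHFD, while the Mrps sums not divided by the totals overlapped between the diets. The ratios of the diets overlapped too, though not with values per kb.

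By evolutionary origin, of 46 members with a bacterial counterpart 6 rose and 10 fell (34.8% called), with a median log2 fold change of -0.07. Of 31 mitochondria-specific members 4 rose and 6 fell (32.3%), with a median of -0.05. Among all tested genes 58.4% were called. Mrps18a and Mrps18b, though relatives of a bacterial protein, were counted as mitochondria-specific. By place in the ribosome, the 5 stalk genes had a median of -0.39, which is the value of the uncalled and overlapped Mrpl53 and was -0.26 in edgeR and -0.25 in DESeq2 on 5 libraries and -0.42 and -0.41 on 6. The other medians were 0.07 in the 9 central protuberance genes, 0.00 in the 9 tunnel exit genes (-0.08 in both tools on 5 libraries), 0.08 in the 4 peptidyl transferase genes and -0.12 in the 7 decoding centre genes. No difference between these groups was tested.

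The levels themselves, as normalized counts per kb of transcript, ranged widely between genes. Among Mrpl genes the median was 234 per kb in MCDHFD and 254 in ND, and among Mrps genes 210.1 in MCDHFD and 198 in ND. Mrpl30 averaged 1187 ± 30.8 in MCDHFD and 1234 ± 27.2 in ND normalized counts per kb (SD, n = 3 each), followed over all libraries by Mrpl24 (979 ± 36.6 in MCDHFD and 1276 ± 79.9 in ND) and Mrpl33 (941 ± 115 in MCDHFD and 1051 ± 36.8 in ND). In MCDHFD the means of Mrpl24 and Mrpl33 differed by less than the SD of Mrpl33, but in ND by more than either SD. In ND Mrpl24 stood above Mrpl30, by less than the SD of Mrpl24. In MCDHFD Mrpl24 stood below Mrpl30, by more than either SD. Mrpl52 averaged 879 ± 160.1 in MCDHFD and 722 ± 70.6 in ND and Mrpl9 615 ± 14.5 in MCDHFD and 712 ± 29.2 in ND. The highest Mrps genes were Mrps9 (809 ± 30.2 in MCDHFD and 583 ± 42.2 in ND), Mrps15 (381 ± 16.6 in MCDHFD and 688 ± 21.7 in ND), Mrps18a (489 ± 52.3 in MCDHFD and 526 ± 49.9 in ND), Mrps18b (594 ± 24.1 in MCDHFD and 404 ± 14.7 in ND) and Mrps34 (393 ± 31.8 in MCDHFD and 435 ± 15.4 in ND). Of Mrps34, 63.4% of exon bases lie in a neighbouring gene. By diet the order differed: Mrpl20, at 781 ± 46.2 in MCDHFD and 539 ± 34.1 in ND, stood above Mrpl9 in MCDHFD and below it in ND. Mrps15 stood below Mrps9 in the mean of MCDHFD libraries and above it in that of ND libraries. The lowest were Mrpl47 (39.8 in each diet) and Mrps25 (11.5 in MCDHFD and 28.9 in ND).

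Replicates of a member were close. The coefficient of variation between libraries had a median of 6.69% in MCDHFD and 6.75% in ND. It passed 20% in 4 members in MCDHFD and 3 in ND. The widest were Mrps36 in MCDHFD (35.0%) and Mrps21 in ND (29.8%), and the narrowest were Mrpl49 in MCDHFD (0.321%) and Mrps24 in ND (1.14%). Mrps21 had 89.4, 169 and 153 normalized counts in the MCDHFD libraries, against 205, 128 and 124 in the ND libraries, a spread too wide to call a difference of its size (log2 fold change -0.16, SE 0.27, limma adjusted p = 0.634). Leaving out the 9 members that share at least 20% of their exon bases with another gene, 23 of 69 were called (33.3%).

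Some proteins of the same ribosome carry other symbols. Of 5 such genes 3 fell in limma (60.0%, close to the 58.4% called among all tested genes) and none rose, also at an unadjusted p under 0.05 and in edgeR (3 lower) and DESeq2 (2 lower on 5 libraries, 3 on 6), with a median log2 fold change of -0.23. Dap3 (mS29), a GTP-binding protein of the small subunit, had 535, 542 and 566 normalized counts in the MCDHFD libraries, against 664, 653 and 649 in the ND libraries. Ptcd3 (mS39), which binds messenger RNA at the small subunit, fell by 0.23 on the log2 scale, and Gadd45gip1 (mL59/64) by 0.46. The call of Ptcd3 ended without MCDHFD replicate 3 (limma adjusted p = 0.0527) or ND replicate 1 (0.0622) and in DESeq2 on 5 libraries (0.0570). As in 65.4% of all tested genes, the libraries of the diets did not overlap in any of these, nor in Chchd1 (log2 fold change -0.11) and Aurkaip1 (-0.18), which did not pass.

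Of 14 mitochondrial translation factors 1 rose and 4 fell (35.7%, against 58.4% of all tested genes), with a median of -0.01. Mrrf, which splits the ribosome after termination, had 79.1, 95.3 and 109.6 normalized counts in the MCDHFD libraries, against 188, 194 and 196 in the ND libraries. Gfm2, the GTPase that works with it, had 336, 403 and 404 normalized counts in the MCDHFD libraries, against 654, 613 and 702 in the ND libraries. Both were lower in each MCDHFD library (log2 fold changes -1.03 and -0.79, limma adjusted p = 0.000294 and 0.000128). Tufm, the elongation factor that brings tRNA (-0.52), and Mtif2, the initiation factor (-0.41), fell as well, while Taco1, an activator of translation of cytochrome oxidase subunit 1, rose (0.40). The call of Taco1, the 1 higher call of this list, ended under quantile scaling (limma adjusted p = 0.0716), in DESeq2 (0.0853 on 5 libraries and 0.0534 on 6) and without MCDHFD replicate 2 (0.0535), MCDHFD replicate 3 (0.0734) or ND replicate 2 (0.0752). The elongation factors Tsfm (-0.01) and Gfm1 (-0.02) and the insertase Oxa1l (0.03) did not pass.

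Genes of ribosome assembly and ribosomal RNA modification went both ways, with 7 of 28 higher and 6 lower and a median of -0.05. That is 46.4% called, against 58.4% of all tested genes. Under quantile scaling 4 were higher and 9 lower, and in DESeq2 4 and 4 on 5 libraries (5 and 4 on 6). Tfb1m, which methylates the small ribosomal RNA, had 40.5, 46.2 and 55.9 normalized counts in the MCDHFD libraries, against 121, 157 and 135 in the ND libraries. Mettl15, a methyltransferase of the same RNA, had 22.6, 24.6 and 16.8 normalized counts in the MCDHFD libraries, against 55.8, 55.4 and 56.4 in the ND libraries, and Mtg2, a GTPase of the large subunit, had 151, 151 and 155 normalized counts in the MCDHFD libraries, against 314, 334 and 316 in the ND libraries. All of these were lower in each MCDHFD library, with log2 fold changes of -1.52, -1.37 and -1.07, and Noa1 fell too (-0.30), a call that ended without MCDHFD replicate 2 (limma adjusted p = 0.0978) or ND replicate 1 (0.103) and in DESeq2 on 5 libraries (0.0501). Rcc1l (0.63), the GTPase Gtpbp10 (0.58), the small subunit factor Rbfa (0.53) and the large subunit factor Malsu1 (0.44) rose.

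In the transcription and upkeep of the mitochondrial genome 3 of 16 genes rose and 3 fell, with a median of -0.01. That is 37.5% called, against 58.4% of all tested genes. For the same list edgeR called 1 higher and 3 lower on 5 libraries and 3 and 3 on 6. Polg, the DNA polymerase (-0.66), Polrmt, the RNA polymerase (-0.48), and Twnk, the helicase (-0.34), fell. Twnk shares exon bases with Mrpl43, which did not pass (-0.01). Tefm, the elongation factor of transcription (0.54), Trmt10c, of tRNA processing (0.54), and Pnpt1, of RNA decay (0.22), rose. The Tefm call ended under quantile scaling (limma adjusted p = 0.217), with no filter (0.0586), without MCDHFD replicate 1 (0.133), MCDHFD replicate 3 (0.0634), ND replicate 2 (0.112) or ND replicate 3 (0.115), in edgeR on 5 libraries (0.122) and in DESeq2 (0.195 on 5 and 0.0764 on 6). The Twnk call ended without MCDHFD replicate 2 (0.0546), ND replicate 2 (0.0628) or ND replicate 3 (0.0505) and in DESeq2 on 5 libraries (0.0725), and that of Pnpt1 under quantile scaling (0.0517) and on 5 libraries in edgeR (0.0698) and DESeq2 (0.102). Tfam, the packaging factor, had a log2 fold change of -0.01 and did not pass.

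Of 11 tested regulators of mitochondrial biogenesis 3 rose and 2 fell (45.5%, against 58.4% of all tested genes). Ppargc1b (0.46), Esrra (0.38) and Gabpb2 (0.25) rose, and Gabpb1 (-0.27) and Mtor (-0.22) fell. The Gabpb1 call ended without MCDHFD replicate 3 (limma adjusted p = 0.0814), ND replicate 1 (0.0748) or ND replicate 2 (0.0576) and in DESeq2 on 5 libraries (0.0585). Of the factors whose motif letters were searched, Nrf1, Gabpa and Yy1 did not pass, unlike Gabpb1 and Gabpb2. Nrf1 averaged 519 ± 16.9 normalized counts in MCDHFD and 491 ± 24.9 in ND. Gabpa averaged 1288 ± 13.4 normalized counts in MCDHFD and 1193 ± 66.3 in ND. Yy1 averaged 1745 ± 85.1 normalized counts in MCDHFD and 1805 ± 96.4 in ND. Ppargc1a was below the mean of 10 needed for a test. Of the 13 genes that the mitochondrial ribosome translates, 4 rose and 1 fell (38.5%, against 58.4% of all tested genes), with a median of 0.09. Under quantile scaling 1 was higher and 5 lower, and in edgeR 1 and 1 on 5 libraries (4 and 1 on 6). The limma calls on the deposited scaling were mt-Nd1 (0.42), mt-Atp6 (0.37), mt-Atp8 (0.31) and mt-Nd5 (0.23), and, lower, mt-Nd2 (-0.29). Under quantile scaling mt-Atp6 (limma adjusted p = 0.104), mt-Atp8 (0.0762) and mt-Nd5 (0.686, log2 fold change -0.02) were not called. Without MCDHFD replicate 3, ND replicate 2 or ND replicate 3 the calls of mt-Atp8 (limma adjusted p = 0.0522, 0.0588 and 0.0615) and mt-Nd5 (0.0594, 0.0505 and 0.0646) ended. Copies of mitochondrial DNA lie in the nuclear genome, so these values are uncertain.

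**Figure D5:**
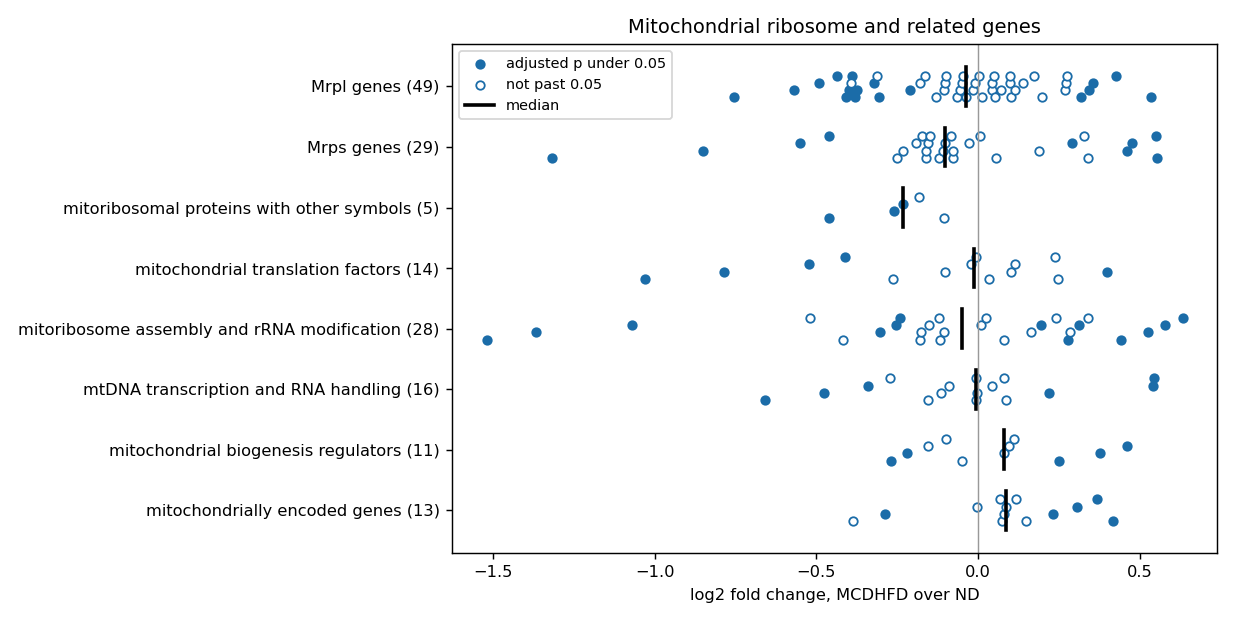
Log2 fold change, MCDHFD over ND on the deposited scaling (x axis), of each tested gene in the Mrpl and Mrps groups and the related lists (rows, with the number tested); filled points passed an adjusted p of 0.05 and bars are medians. The lowest points are Tfb1m at -1.52, Mettl15 at -1.37 and Mrps25 at -1.32, and the medians lie between -0.23 and 0.09, while with the CD8 identity genes held equal nearly all of these genes were higher.

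Cytosolic ribosomal proteins and nuclear subunits of the respiratory chain were set beside the mitochondrial ribosome for comparison. Of 84 cytosolic ribosomal protein genes 6 rose and 20 fell (31.0%), with a median log2 fold change of -0.06, against 3 higher and 26 lower under quantile scaling and 3 and 20 in DESeq2 on 5 libraries (5 and 20 on 6). Of 79 nuclear respiratory chain and ATP synthase genes 15 rose and 8 fell (29.1%), with a median of 0.05, against 13 higher and 14 lower under quantile scaling. Among all tested genes 58.4% were called. The difference between these lists and the 78 members was not tested. Their summed shares were 3.53 to 3.66% in MCDHFD against 3.83 to 4.09% in ND for the cytosolic ribosome, and 0.486 to 0.524% in MCDHFD against 0.491 to 0.510% in ND for the respiratory chain genes.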

How the data were processed

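Per the labels' protocols, RNA was taken up in TRIzol and made into libraries with either of a pair of kits, for whole RNA or for mRNA. Per the submitters' processing notes the genome was mm10. No source used here gives the aligner, counter, annotation or strand setting. Reads of antisense or overlapping genes may therefore be shared.

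The deposited values are a signal, read counts that the authors scaled to normalized counts, per the file headers. Symbols were matched by gene identifier for 19202 of 19323 genes. The 13430 genes averaging 10 or more were tested with limma 3.58.1 (R 4.3.3) on log2 values after adding a pseudocount of 1, with an intensity trend, diet as the only term and Benjamini-Hochberg adjustment at 0.05 over all of them. This scale understates fold changes of low genes.

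Dividing by the smallest value above 0 gave whole reads, at a tolerance of 0.01, for 100% of values in each library, with totals of 13188812 to 15482458. The count tests first used 5 libraries, without ND replicate 3, whose smallest value of 0.990 lay closest to 1. On these, edgeR 4.0.16 called 3687 genes higher and 3449 lower, and DESeq2 1.42.0 called 3545 and 3170. With all 6 libraries, an alternative chosen after seeing the data, edgeR called 4005 and 3858, and DESeq2 3814 and 3473. Where no number of libraries is named, count tests are on 5. Libraries of one diet did not agree within sampling noise (chi-square per degree of freedom 6.11 to 11.5).

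Coordinates and exons came from GENCODE M21 on mm10, and promoters from RefSeq on GRCm38.p6. Values per kb used the median length of protein-coding transcripts. Near-identical copies were found with BLAST 2.17.0 (at least 95% over at least 200 bases). The members named are every called gene, the 5 highest per kb in each subunit, the lowest mean and those that structures place apart from their symbol, and further members are named by their place in the ribosome. In related lists up to 4 called genes per direction are named, and others named there were chosen after their values were seen. The members and lists were chosen with earlier results of these data known. The procedure was checked on simulated counts with few changed genes and a fixed spread. In these data many genes were called, so that check gives no error rate for them. Alternatives were other pseudocounts, filters, scalings, thresholds, weights and tools, a replicate block, subunits by structure and leaving out each library.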

Additional observations from a re-analysis of the deposited data

How the results depend on the processing

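The counts of called members held within 1.5 times their main values of 10 higher and 16 lower under pseudocounts of 0.5 and 5, no filter and a filter of 50, TMM scaling, quantile scaling (9 and 23), library weights, edgeR (11 and 16 on 5 libraries, 10 and 17 on 6) and DESeq2 (10 and 15 on 5, 10 and 16 on 6). At an adjusted p under 0.01, 6 were higher and 11 lower. Leaving out one library gave 8 to 11 higher and 12 to 17 lower, and the large subunit median ran from -0.06 to 0.03. Quantile scaling moved the medians to -0.12 in the large and -0.18 in the small subunit, with -0.08 for all genes. With the CD8 identity genes held equal, 75 members were higher and 0 lower (0 also at an unadjusted p under 0.05, in limma), with medians of 0.98 and 0.92, against 1.02 for all genes. Of 46 members with a negative value on the deposited scaling, 45 were then positive, 21 of them among the 35 members that the naming rule takes: Mrpl10 0.53, Mrpl14 0.26, Mrpl21 0.45, Mrpl24 0.64, Mrpl30 0.96, Mrpl33 0.85, Mrpl35 0.71, Mrpl36 0.58, Mrpl39 0.64, Mrpl46 0.63, Mrpl49 0.62, Mrpl53 0.63, Mrpl54 0.61, Mrpl58 0.70, Mrpl9 0.81, Mrps15 0.17, Mrps16 0.47, Mrps18a 0.91, Mrps18c 0.99, Mrps34 0.87 and Mrps5 0.56. The rest of the table shifted likewise, so these directions are relative.

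Whether the replicate numbers pair the samples could not be decided from 3 libraries per diet. Deviations of same-numbered libraries correlated at 0.04, 0.06 and 0.01, and those of other pairs at -0.06 to 0.02. With the replicate block 11 members were higher and 17 lower, with the subunit medians as before, and no named call ended. MCDHFD replicates 1, 2 and 3 each correlated best with the ND library of their own number, but ND replicate 3 correlated best with MCDHFD replicate 1. A kit that may differ between libraries, the unknown strand setting, markers of other cells that moved with diet and only 3 libraries per diet limit every value.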
